A study of Mus musculus with 6 samples.

Results

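The 8 genes followed here act in ion transport of the sperm tail outside the CatSper calcium channel: *Kcnu1*, *Lrrc52*, *Slc9c1*, *Adcy10*, *Slc26a8*, *Hvcn1*, *Atp1a4* and *Atp2b4*. They were taken by symbol, and all 8 are among the 25165 symbols of the tables. The data are 6 RNA libraries of C57BL/6 mouse testis, taken at 8 weeks of age. In 3 libraries, with titles that start with KO, the mice lack the testis long non-coding RNA Teshl (transcript NR_038002), and 3 libraries with titles that start with WT come from wild-type mice; they are called KO-titled and WT-titled. The genotype field says the opposite of the titles in every library, so the groups follow the titles. The sources used here do not say how the loss was made or whether each library is a separate animal, so p-values reflect a spread between libraries that could be technical.

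Sperm leave the testis unable to fertilise and become able to do so as ions cross the plasma membrane of the tail. Bicarbonate enters and switches on a soluble adenylyl cyclase, cyclic AMP activates protein kinase A, sodium is exchanged for protons so that the cell interior becomes alkaline, and potassium leaves through a sperm-only channel and hyperpolarises the membrane. Pumps restore sodium and calcium. Most of these proteins are made only in germ cells, and their mRNAs appear in the testis while the tail is being built. Whole testis was sequenced, so fewer cells of a type and less RNA per cell cannot be told apart in what follows.

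The targeted gene goes with the titles. *1700027A15Rik*, the gene of the named transcript, was at 0.385 FPKM in KO-titled replicate 1 and listed at 0 in KO-titled replicates 2 and 3, against 1028, 989 and 1081 FPKM in the WT-titled replicates. FPKM is a fragment count divided by transcript length and by library depth. Testis identity was clear: the spermatocyte, round spermatid and elongating spermatid lists had all 7, 5 and 9 of their markers above 1 FPKM, and the 4 epididymis markers summed to at most 0.0765 FPKM, with *Lcn5* and *Rnase9* at 0 throughout. The spacing of the lowest values puts the depth at about 27900000 to 39700000 fragments per library.

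None of the 8 genes passed the test between the groups. Of these, 7 were above the filter on low values and were tested, and *Hvcn1* was listed at 0 in every library. Among them, 0 had an adjusted p under 0.05 (limma on log2(FPKM + 1), Benjamini-Hochberg over 12952 genes), against 149 of all 12952 tested genes, or 1.15%. Of the 149, 102 were higher in KO-titled libraries (0.788% of tested genes) and 47 lower (0.363%), or 121 and 33 with upper-quartile scaling. The adjusted p-values of the 7 ran between 0.296 and 0.999. At an unadjusted p under 0.05 there was 1 of the 7, *Lrrc52*, against 14.3% of all tested genes. The count of 149 varied as single libraries were left out. It was 138, 73 and 77 without KO-titled replicates 1, 2 and 3. Without WT-titled replicates 1, 2 and 3 it was 81, 100 and 233. Such fits also rest on fewer libraries. In each of these cases the count among the 7 stayed at 0.

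The intervals of the differences are narrow, but they hold for the values as deposited and for the spread between these libraries. They carry no uncertainty of scaling. With median-of-ratios scaling the log2 fold change of *Lrrc52* was 0.23, against 0.19 as deposited. Over the 7 genes the 95% intervals of the fold change, on the log2(FPKM + 1) scale, ran from -13.8% (lower bound of *Adcy10*) to 27.7% (upper bound of *Lrrc52*) in KO-titled relative to WT-titled libraries. The median log2 fold change was 0.020 over the 7 genes and -0.043 over all tested genes. Of the 7, 6 had a value above 0, while 34.3% of all tested genes did. Of the 6, *Slc9c1*, *Atp1a4*, *Atp2b4* and *Slc26a8* were at 0.037 or less. Each of these turned negative when some single library was left out, so the 6 do not show a shared direction. A p that misses the threshold does not show that the levels were the same.

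**Figure D1:**
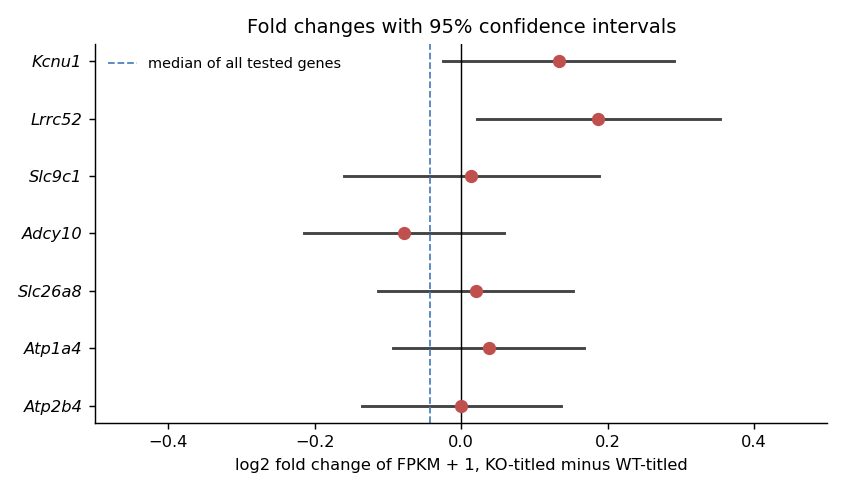
Log2 fold change of each tested gene, KO-titled minus WT-titled, on the log2(FPKM + 1) scale (points), with the 95% confidence interval from limma (lines). The dashed line is the median of all 12952 tested genes (-0.043). The interval of *Lrrc52* alone lies wholly above 0, and none of the 7 genes passed the adjusted threshold.

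The potassium channel comes first. *Kcnu1* (ENSMUSG00000031576.16, chromosome 8, 25849623 to 25937939 of mm10, plus strand, GENCODE M21) encodes SLO3, the pore subunit of the sperm-specific potassium channel that opens as the cell becomes alkaline. It was at 21.9, 24.5 and 21.9 FPKM in KO-titled replicates 1, 2 and 3, and at 20.6, 19.3 and 22.1 FPKM in WT-titled replicates 1, 2 and 3. KO-titled replicate 2 was the highest and WT-titled replicate 2 the lowest, and WT-titled replicate 3 lay above 2 KO-titled libraries, so the groups overlapped. The means were 22.8 ± 1.48 FPKM in KO-titled libraries against 20.7 ± 1.42 FPKM in WT-titled libraries (SD, n = 3 each). The log2 fold change was 0.13 (SE 0.070, with an adjusted p of 0.405 by limma).

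*Lrrc52* (ENSMUSG00000040485.5, chromosome 1, 167445669 to 167466780, minus strand) encodes the leucine-rich repeat subunit that joins SLO3 in sperm and lets the channel open at the voltages and pH that sperm reach. Its level was 22.7, 25.5 and 22.3 FPKM in KO-titled replicates 1, 2 and 3, against 19.9, 19.5 and 22.3 FPKM in WT-titled replicates 1, 2 and 3. All 3 KO-titled libraries lay above all 3 WT-titled ones, by 22.3089 against 22.2754 FPKM at the closest. Such separation was seen in 1 of the 7 genes, or 14.3%, and in 21.7% of all tested genes. The means were 23.5 ± 1.75 FPKM in KO-titled libraries against 20.5 ± 1.52 FPKM in WT-titled libraries (SD, n = 3 each), or 0.19 on the log2 scale (SE 0.074, with an adjusted p of 0.296 by limma).

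**Figure D2:**
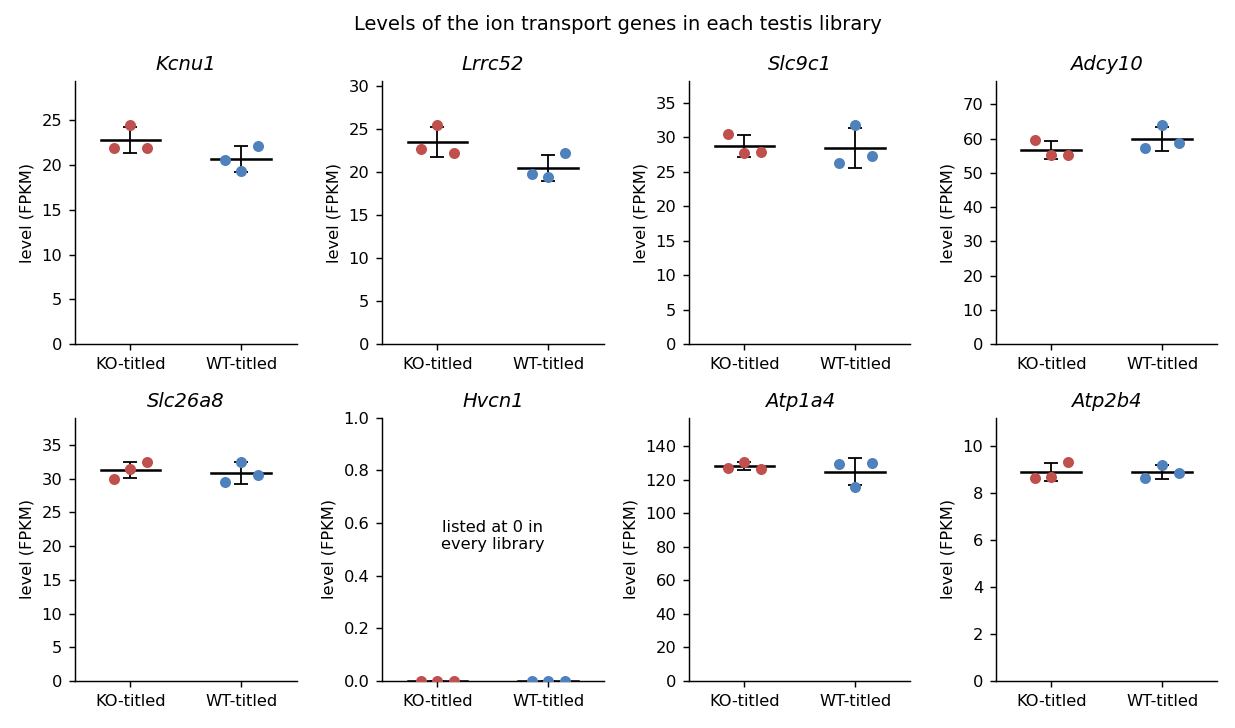
Level of each of the 8 genes in FPKM, with 1 point per library, the mean as a horizontal line and 1 SD as error bars (n = 3 per group; every axis starts at 0). *Lrrc52* is the only one of these genes whose groups do not overlap, and *Hvcn1* is listed at 0 in all 6 libraries.

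Both channel subunits stood at nearly the same level per length. The ratio of *Lrrc52* FPKM to *Kcnu1* FPKM was 1.04, 1.04 and 1.02 in KO-titled replicates 1, 2 and 3, against 0.966, 1.01 and 1.01 in WT-titled replicates 1, 2 and 3. The KO-titled libraries all lay above the WT-titled ones, and the log2 ratio differed by 0.057 (p = 0.1 by a two-sided exact permutation test, which cannot go lower with 3 libraries a group, and 0.35 adjusted over 7 ratios and shares). Of the other 10 genes of SLO channels and their subunits, 2 had levels high enough to be tested and neither passed (0 at an unadjusted p under 0.05 as well). *Kcnmb4*, a beta subunit of the calcium-activated channel SLO1, was the highest at 45.1 ± 1.53 FPKM in KO-titled libraries against 45.7 ± 2.93 FPKM in WT-titled libraries (SD, n = 3 each). *Kcnmb3* was at 1.65 ± 0.459 FPKM in KO-titled libraries against 1.58 ± 0.200 FPKM in WT-titled libraries. The SLO1 pore gene *Kcnma1* lay between 0.704 and 0.8997 FPKM and the other SLO and gamma subunit genes at 1.01 FPKM or less in every library.

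The exchanger and the cyclase form the alkalinising and cyclic AMP step. *Slc9c1* (ENSMUSG00000033210.16, chromosome 16, 45535309 to 45607001, plus strand) encodes the sperm sodium-proton exchanger, which carries a voltage sensor and a cyclic nucleotide binding domain. *Adcy10* (ENSMUSG00000026567.16, chromosome 1, 165485183 to 165576774, plus strand) encodes the soluble adenylyl cyclase that bicarbonate activates, and in mice lacking the exchanger this cyclase is scarce in sperm. RefSeq holds start-site windows for 6 of the 8 genes. The 120 bases before the start of both are shown (GRCm38.p6, the assembly of mm10) because each holds a CCAAT box, given in capitals, on the strand of the gene, and those of *Lrrc52* because they hold none.
Adcy10, chr1:165485063-165485182, plus strand: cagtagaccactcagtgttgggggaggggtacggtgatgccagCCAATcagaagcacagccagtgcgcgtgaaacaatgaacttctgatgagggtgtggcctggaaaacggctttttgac
Slc9c1, chr16:45535146-45535265, plus strand: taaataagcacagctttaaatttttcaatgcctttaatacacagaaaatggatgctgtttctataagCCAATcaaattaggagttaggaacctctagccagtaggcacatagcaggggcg
Lrrc52, chr1:167466781-167466900, minus strand: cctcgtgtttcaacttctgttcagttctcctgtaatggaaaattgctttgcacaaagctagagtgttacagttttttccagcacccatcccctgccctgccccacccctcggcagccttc

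The box begins 77 bases before the RefSeq start of *Adcy10* and 53 bases before that of *Slc9c1*. For *Slc9c1* the RefSeq start lies upstream of the GENCODE gene start at 45535309, while for *Adcy10* the starts agree. Searched on both strands in windows of 250 bases before to 50 after the start, CCAAT was in 3 of the 6 genes (the third is *Slc26a8*, on the other strand, 231 bases before its start) and in 37.4% of all 32851 RefSeq windows. The cyclic AMP response element TGACGTCA, the X-box half-site GTTGCC and the TATA box TATAAA were in 0 of the 6, and in 1.79%, 12.5% and 13.6% of all windows. These matches describe letters only, and 4 motifs that do not overlap were searched.

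*Slc9c1* stood at 30.5, 27.7 and 27.9 FPKM in KO-titled replicates 1, 2 and 3, against 26.3, 31.8 and 27.3 FPKM in WT-titled replicates 1, 2 and 3. The lowest and the highest library were both WT-titled, so the KO-titled libraries lay inside the range of the others. The means were 28.7 ± 1.57 FPKM in KO-titled libraries against 28.5 ± 2.92 FPKM in WT-titled libraries (SD, n = 3 each), and the log2 fold change was 0.014 (SE 0.077, with an adjusted p of 0.940 by limma). Its sign turned when KO-titled replicate 1, WT-titled replicate 1 or WT-titled replicate 3 was left out (-0.030, -0.039 and -0.013).

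*Adcy10* was at 59.7, 55.3 and 55.2 FPKM in KO-titled replicates 1, 2 and 3, and at 57.3, 64.0 and 58.6 FPKM in WT-titled replicates 1, 2 and 3. KO-titled replicates 2 and 3 lay below every WT-titled library, and KO-titled replicate 1 lay above 2 of them. The means were 56.7 ± 2.56 FPKM in KO-titled libraries against 60.0 ± 3.54 FPKM in WT-titled libraries (SD, n = 3 each), with a log2 fold change of -0.078 (SE 0.061, with an adjusted p of 0.549 by limma), the only negative value of the 7.

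*Slc9c1* stood well below *Adcy10* per length in every library. The ratio of *Slc9c1* FPKM to *Adcy10* FPKM was 0.511, 0.501 and 0.505 in KO-titled replicates 1, 2 and 3, against 0.459, 0.497 and 0.466 in WT-titled replicates 1, 2 and 3. The KO-titled ratios varied little and lay above all WT-titled ones, with a difference of 0.094 in the log2 ratio (p = 0.1 by a two-sided exact permutation test, again the lowest possible, and 0.35 adjusted over the 7 ratios and shares).

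Among the 9 membrane adenylyl cyclases none passed (3 tested, 0 at an unadjusted p under 0.05). *Adcy10* made up 89.4% ± 0.572 of the FPKM of all 10 cyclases in KO-titled libraries against 89.6% ± 0.210 in WT-titled libraries (SD, n = 3 each, with p = 0.9 by the exact permutation test). Next was *Adcy7*, at 1.57 ± 0.117 FPKM in KO-titled libraries against 1.61 ± 0.237 FPKM in WT-titled libraries. *Adcy6* was at 1.33 ± 0.125 FPKM in KO-titled libraries against 1.37 ± 0.155 FPKM in WT-titled libraries. Of the 9 genes of protein kinase A and of other proteins that bind cyclic AMP, all were tested and none passed (1 at an unadjusted p under 0.05, lower). That gene was *Prkar1a*, a regulatory subunit of protein kinase A, at 52.9 ± 0.568 FPKM in KO-titled libraries against 60.0 ± 4.35 FPKM in WT-titled libraries (SD, n = 3 each), or -0.18 as a log2 difference (SE 0.060, with an adjusted p of 0.246 by limma). *Cnbd2*, which encodes a cyclic nucleotide binding protein of spermatids, was at 75.5 ± 4.08 FPKM in KO-titled libraries against 75.3 ± 6.51 FPKM in WT-titled libraries.

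*Slc9c1* was not the most abundant exchanger of its superfamily in the testis. *Slc9b1*, a testis-enriched sodium-proton exchanger of sperm, was at 47.6 ± 1.47 FPKM in KO-titled libraries against 48.9 ± 1.73 FPKM in WT-titled libraries (SD, n = 3 each). *Slc9c1* took 27.9% ± 1.12 of the FPKM of the 12 exchanger genes in KO-titled libraries against 28.0% ± 1.70 in WT-titled libraries (p = 0.9 by the exact permutation test). Of the other 11 exchangers 5 were tested and 0 passed (1 at an unadjusted p under 0.05, higher).

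*Slc26a8* (ENSMUSG00000036196.16, chromosome 17, 28637783 to 28690233, minus strand) encodes a testis-specific anion transporter of the sperm annulus, the ring between the midpiece and the principal piece. It was at 30.0, 31.4 and 32.4 FPKM in KO-titled replicates 1, 2 and 3, against 29.5, 32.5 and 30.5 FPKM in WT-titled replicates 1, 2 and 3. Lowest and highest were again both WT-titled. The means were 31.3 ± 1.22 FPKM in KO-titled libraries against 30.9 ± 1.56 FPKM in WT-titled libraries (SD, n = 3 each), with a log2 fold change of 0.020 (SE 0.059, with an adjusted p of 0.882 by limma).

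Within the Slc26 family it was the dominant transcript, with 75.8% ± 0.526 of the family's FPKM in KO-titled libraries against 74.8% ± 1.21 in WT-titled libraries (SD, n = 3 each, with p = 0.3 by the exact permutation test). The other chloride and bicarbonate transporters numbered 21 genes with the SLC26A8-binding GTPase regulator *Racgap1*, of which 10 were tested and 0 passed (0 at an unadjusted p under 0.05). *Racgap1* was at 14.9 ± 0.518 FPKM in KO-titled libraries against 16.2 ± 1.47 FPKM in WT-titled libraries. *Slc4a7*, a sodium bicarbonate cotransporter, was at 7.76 ± 0.345 FPKM in KO-titled libraries against 8.45 ± 0.304 FPKM in WT-titled libraries (SD, n = 3 each). *Cftr*, the chloride channel known to work with *Slc26a8*, lay between 3.90 and 4.96 FPKM over the 6 libraries. *Slc26a1* was listed at 0 throughout. Of 16 carbonic anhydrases, which interconvert carbon dioxide and bicarbonate, 5 were tested and 0 passed (0 at an unadjusted p under 0.05), and *Car2* was the highest at 61.5 ± 2.83 FPKM in KO-titled libraries against 56.6 ± 3.77 FPKM in WT-titled libraries. *Car15* followed at 2.23 ± 0.0876 FPKM in KO-titled libraries against 2.18 ± 0.435 FPKM in WT-titled libraries. *Car5a*, *Car9*, *Car10* and *Car14* were listed at 0 in every library.

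*Hvcn1* (ENSMUSG00000064267.13, chromosome 5, 122206804 to 122242297, plus strand) encodes the voltage-gated proton channel, which carries protons out of human sperm. It was listed at 0 in all 6 libraries, so no fold change or test was made. A 0 in these tables need not mean absence. The ribosomal protein gene *Rpl26*, which every cell uses, was listed at 0 in 4 libraries and at 49.97 FPKM or more in the others. Unlike *Rpl26*, *Hvcn1* was at 0 in all 6 libraries, and whether it is truly absent was not tested. In GENCODE M21 *Hvcn1* shares 1574 bases of exon with *Tctn1*, a gene of cilia on the opposite strand, and 56.3% of its longest transcript aligns to transcripts of *Tctn1*. *Tctn1* was at 9.23, 9.62 and 10.3 FPKM in KO-titled replicates 1, 2 and 3, against 9.67, 9.76 and 9.26 FPKM in WT-titled replicates 1, 2 and 3. The sources used here do not name the strand setting of the authors' counting, so reads from these overlapping ends cannot be assigned. Over protein-coding symbols, 10.6% of the 4235 that overlap another protein-coding gene were listed at 0 throughout, and 9.33% of the 16134 that do not.

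The pumps come last. *Atp1a4* (ENSMUSG00000007107.6, chromosome 1, 172223513 to 172258414, minus strand) encodes the sodium pump alpha subunit found only in male germ cells, which sperm need for motility. It was the most abundant of these genes, at 127, 131 and 127 FPKM in KO-titled replicates 1, 2 and 3, against 129, 115 and 130 FPKM in WT-titled replicates 1, 2 and 3. One library, WT-titled replicate 2, stood below the rest, and the other libraries of both groups spanned 126.5 to 130.878 FPKM. The means were 128 ± 2.41 FPKM in KO-titled libraries against 125 ± 8.23 FPKM in WT-titled libraries (SD, n = 3 each), with a log2 fold change of 0.037 (SE 0.058, with an adjusted p of 0.760 by limma) that turned to -0.018 without WT-titled replicate 2.

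Of the other 14 sodium pump genes 9 were tested and 0 passed, while 3 had an unadjusted p under 0.05, all lower, against 14.3% of all tested genes in either direction. In 5 of the 9 the groups did not overlap, against 21.7% of all tested genes. The beta subunit *Atp1b3* was the highest, at 139 ± 5.66 FPKM in KO-titled libraries against 149 ± 5.74 FPKM in WT-titled libraries (SD, n = 3 each), or -0.092 as a log2 difference (SE 0.053, with an adjusted p of 0.440 by limma), a level close to that of *Atp1a4*. The 3 were FXYD genes, whose small membrane proteins adjust the pump. *Fxyd1* was at 44.1, 39.7 and 42.4 FPKM in KO-titled replicates 1, 2 and 3, against 52.7, 49.5 and 51.1 FPKM in WT-titled replicates 1, 2 and 3 (log2 difference -0.28, SE 0.057, with an adjusted p of 0.0650 by limma). *Fxyd2* was at 11.7 ± 1.21 FPKM in KO-titled libraries against 15.4 ± 1.51 FPKM in WT-titled libraries (limma adjusted p = 0.0998), and *Fxyd6* at 13.4 ± 0.550 FPKM in KO-titled libraries against 15.9 ± 0.830 FPKM in WT-titled libraries (limma adjusted p = 0.151; *Fxyd2* and *Fxyd6* were named after their values were seen). *Fxyd3* and *Fxyd4* were listed at 0 throughout.

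*Atp2b4* (ENSMUSG00000026463.17, chromosome 1, 133699457 to 133801041, minus strand) encodes PMCA4, the plasma membrane calcium pump of the sperm tail, without which mouse sperm lose motility. It had the lowest level of the 7 detected genes, at 8.62, 8.68 and 9.33 FPKM in KO-titled replicates 1, 2 and 3, against 8.61, 9.18 and 8.82 FPKM in WT-titled replicates 1, 2 and 3. The groups overlapped over almost their whole range. The means were 8.88 ± 0.390 FPKM in KO-titled libraries against 8.87 ± 0.288 FPKM in WT-titled libraries (SD, n = 3 each), and the 95% interval of the difference ran from -8.94% to 9.86% (log2 difference 0.00029, SE 0.060, with an adjusted p of 0.999 by limma).

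*Atp2b4* made up 74.9% ± 0.726 of the FPKM of the 4 plasma membrane calcium pump genes in KO-titled libraries against 73.6% ± 0.813 in WT-titled libraries (SD, n = 3 each, with p = 0.2 by the exact permutation test). *Atp2b1*, the form most cells carry, lay between 2.16 and 2.53 FPKM over the 6 libraries. Of the other 12 calcium pumps and exchangers 4 were tested and 0 passed (0 at an unadjusted p under 0.05). *Atp2a2*, the calcium pump of the endoplasmic reticulum, was at 35.2 ± 1.77 FPKM in KO-titled libraries against 38.6 ± 1.55 FPKM in WT-titled libraries. The sodium-calcium exchanger gene *Slc8a2* was at 10.4 ± 0.391 FPKM in KO-titled libraries against 11.3 ± 0.974 FPKM in WT-titled libraries (SD, n = 3 each), and *Atp2a1* was listed at 0.

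**Figure D3:**
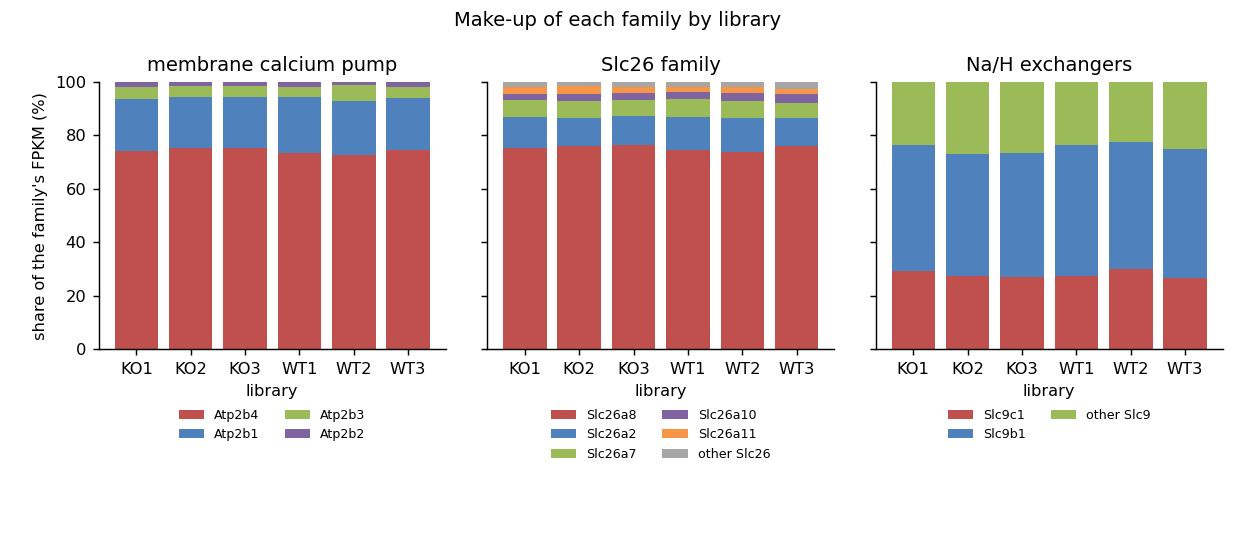
Share of each family's summed FPKM taken by its genes in every library, in percent, for the plasma membrane calcium pumps, the Slc26 transporters and the sodium-proton exchangers. *Atp2b4* and *Slc26a8* take most of their families in all 6 libraries, while *Slc9b1* exceeds *Slc9c1* in each.

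Over the 8 lists of related genes together, 47 of 102 genes were tested and 0 passed (5 had an unadjusted p under 0.05, 1 of them higher and 4 lower, or 10.6%, against 14.3% of all tested genes). Groups that did not overlap made up 19.1% of the 47, against 21.7% of all tested genes. The median log2 fold change of the 47 was -0.067, against -0.043 over all tested genes.

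The order of levels per length was the same in every library except within the pairs *Slc26a8* with *Slc9c1* and *Lrrc52* with *Kcnu1*. *Atp1a4* stood above *Adcy10* by 2.17-fold, *Adcy10* above *Slc26a8* by 1.88-fold and *Kcnu1* above *Atp2b4* by 2.45-fold in the means over 6 libraries, with no overlap between any of these neighbours. *Slc26a8* and *Slc9c1* overlapped, with *Slc26a8* higher in 5 of 6 libraries, as did *Lrrc52* and *Kcnu1*, with *Lrrc52* higher in 5 of 6. *Slc9c1* stood above *Lrrc52* by 1.30-fold, 26.3 FPKM at its lowest against 25.5 FPKM at the highest. The level of *Atp1a4* was at the 97.7th percentile of all symbols and that of *Atp2b4* at the 76.6th. Within a group the SD was 1.88% to 10.3% of the mean for the 7 genes. Counting alone would give 0.894% for *Atp1a4* and 3.97% for *Lrrc52*, the shortest transcript, in the library with the fewest fragments.

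The libraries differed among themselves, and the genes are described here in sets that were formed after their values were seen. WT-titled replicate 2 had the lowest level of 3 of the 7 genes, *Kcnu1*, *Lrrc52* and *Atp1a4*, and the highest level of 3 others, *Slc9c1*, *Adcy10* and *Slc26a8*. KO-titled replicate 2 had the highest level of *Kcnu1*, *Lrrc52* and *Atp1a4*. *Atp2b4*, in neither set, was lowest in WT-titled replicate 1 and highest in KO-titled replicate 3. Of all tested genes, 16.3% were lowest and 36.7% highest in WT-titled replicate 2, and 19.3% were highest in KO-titled replicate 2. The 3 of 7 genes highest in WT-titled replicate 2 are thus near the share over all tested genes. The 3 of 7 lowest in it and the 3 of 7 highest in KO-titled replicate 2 are above their shares. These are the same genes, grouped after their values were seen, and the share of all tested genes with both traits was not counted. All 5 round spermatid markers were also lowest in WT-titled replicate 2 and highest in KO-titled replicate 2. *Acrv1*, which encodes an acrosomal protein, was at 194 FPKM in KO-titled replicate 2 and 141 FPKM in WT-titled replicate 2. *Tssk2*, a spermatid kinase gene, was at 326 FPKM in KO-titled replicate 2 and 286 FPKM in WT-titled replicate 2. Of the elongating spermatid markers, *Prm1*, *Prm2*, *Tnp2*, *Oaz3* and *Gapdhs* were likewise lowest in WT-titled replicate 2 and highest in KO-titled replicate 2. This did not hold for *Prm3*, *Tnp1*, *Odf1* and *Akap4*. The spermatocyte markers were mixed. *Sycp1*, *Hormad1* and *Ccna1* were highest in WT-titled replicate 2, like *Slc9c1*, *Adcy10* and *Slc26a8*. *Spo11* and *Piwil1* were lowest there, and *Sycp3* and *Tex101* were neither. The part of spermatocytes or of round or elongating spermatids in the levels of the 7 genes was not tested.

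**Figure D4:**
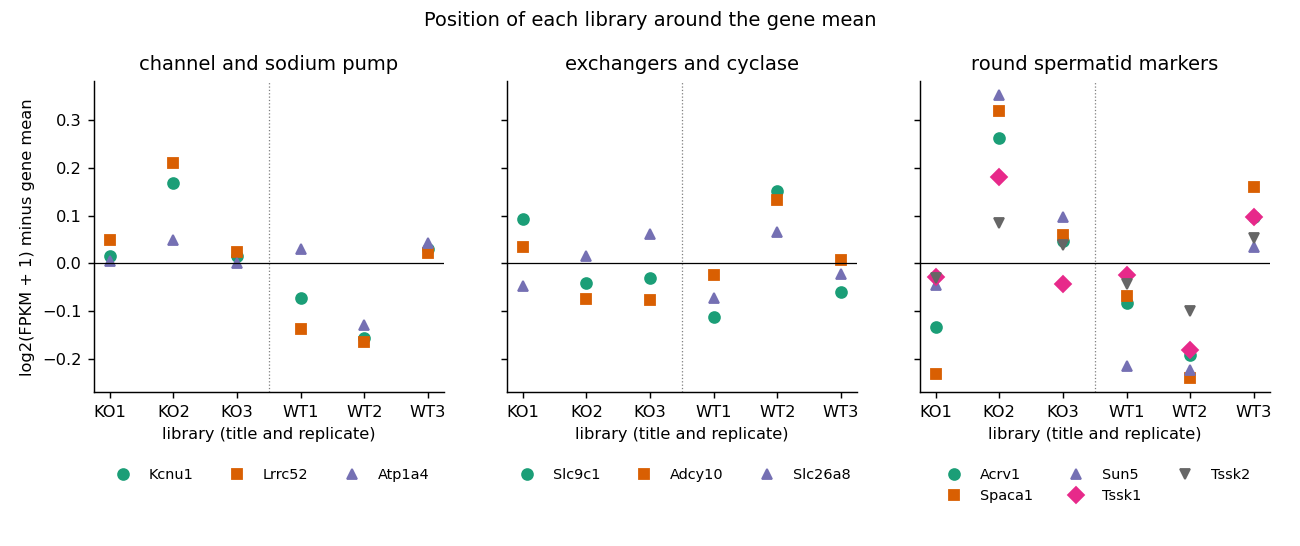
Log2(FPKM + 1) of each gene minus its mean over the 6 libraries, with 1 point per gene and library, for 2 sets of the ion transport genes and the 5 round spermatid markers. *Kcnu1*, *Lrrc52*, *Atp1a4* and the markers are lowest in WT-titled replicate 2 (WT2) and highest in KO-titled replicate 2 (KO2). *Slc9c1*, *Adcy10* and *Slc26a8* are highest in WT2. *Atp2b4* is in neither set and is not shown.

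Without WT-titled replicate 2 the log2 fold change was 0.087 for *Kcnu1* (limma adjusted p = 0.755), 0.15 for *Lrrc52* (0.607) and -0.031 for *Adcy10* (0.904). Without KO-titled replicate 2 it was 0.082 for *Kcnu1* (limma adjusted p = 0.800), 0.13 for *Lrrc52* (0.705) and -0.060 for *Adcy10* (0.847). Those of *Kcnu1* and *Adcy10* thus moved by over 1.5 times with a single library.

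No gene of the marker lists of the testis passed. The round spermatid list summed to 725 to 875 FPKM in KO-titled libraries against 684 to 812 FPKM in WT-titled libraries, with 0 of 5 called and 1 higher at an unadjusted p under 0.05. The elongating spermatid list summed to 34287 to 36468 FPKM in KO-titled libraries against 28986 to 32989 FPKM in WT-titled libraries, with 0 of 9 called and 5 higher at an unadjusted p under 0.05, which 14.3% of all tested genes had in either direction. The spermatogonia list summed to 45.0 to 50.6 FPKM in KO-titled libraries against 51.6 to 59.9 FPKM in WT-titled libraries, with 6 of 8 tested, 0 called and 2 lower at an unadjusted p under 0.05. The spermatocyte list summed to 452 to 487 FPKM in KO-titled libraries against 465 to 491 FPKM in WT-titled libraries. Sertoli markers summed to 362 to 406 FPKM in KO-titled libraries against 384 to 435 FPKM in WT-titled libraries, and Leydig markers to 1529 to 1761 FPKM in KO-titled libraries against 1701 to 1764 FPKM in WT-titled libraries. In these 3 lists the summed levels of the groups overlapped. Of their genes, 1 of 7 Leydig markers was lower at an unadjusted p under 0.05, and 0 of 7 tested spermatocyte and 0 of 7 tested Sertoli markers were. The round spermatid sums overlapped as well. Those of elongating spermatids (higher in KO-titled libraries) and spermatogonia (lower in KO-titled libraries) did not. *Hba-a1* of red cells lay between 19.6 and 50.6 FPKM, and *Hbb-bs* was listed at 0.

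Genes whose pattern over the 6 libraries was most like the mean of the 7, by Pearson correlation of log2(FPKM + 1), were *Septin3* (0.995), *Brinp3* (0.988) and *Zfp991* (0.987). Of 12945 genes compared, 135 had a correlation over 0.9. In WT-titled replicate 2, *Kcnu1*, *Lrrc52* and *Atp1a4* lay below their own means and *Slc9c1*, *Adcy10* and *Slc26a8* above. A likeness to the mean of the 7 is therefore not a likeness to each of them.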

How the data were processed

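Total RNA from testis was made into libraries with a directional kit, per the labels' protocols. The submitters' processing notes name HISAT2 and mm10; no source used here gives the quantifier, annotation or strand setting. Values were taken as FPKM, deposited by the authors in 1 table per library. The unit was read from the values: they carry decimals, library totals vary (393622 to 413604), and low values in genes with 1 transcript cluster at whole steps of value times length, which gave the depth. A count of 3 fragments on 1 kb would equal 0.0756 to 0.108 FPKM, counting error only.

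Each table had 25910 rows and 25165 symbols; the 1078 rows of 333 symbols were summed per symbol. After adding 1 and taking log2, genes averaging 1 FPKM or higher in either group were tested with limma (version 3.58.1; R 4.3.3; trend and robust options). Benjamini-Hochberg adjustment ran over all tested genes, with a threshold of 0.05; for low genes this scale makes changes look smaller. Ratios and shares used exact two-sided permutation tests (SciPy 1.17.1). Alternatives were other pseudocounts, filters and scalings, no robust estimation, single-row symbols, the replicate number as a block and each library left out. BLAST 2.17.0 (90% identity, covering 50% or more of the longest transcript) found a match for *Hvcn1* alone. It was to *Tctn1*, whose exons overlap those of *Hvcn1* on the opposite strand, so it is not a separate copy. Exons of the other genes shared at most 6 bases with another annotated gene.

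The genes and lists were chosen with earlier results of these data known. Beside the 8 genes, the text names the target, and in each list any called gene and the 2 highest. It also names those at 0 in marker lists and the 3 genes most alike in pattern. Others are named for comparison within a family or marker list. Some genes of the marker lists are given only as sums. The results of some related genes, and a share resting on one of them, are not reported here.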

Additional observations from a re-analysis of the deposited data

How the results depend on the processing

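None of the 7 tested genes passed in any of 16 alternatives: over 112 values the smallest limma adjusted p was 0.185 (*Lrrc52*, without WT-titled replicate 3). The sign differed from the main value in 10 of the 112, all for genes near 0: with equal library totals *Atp2b4* was at -0.012, and leaving out single libraries gave ranges of -0.039 to 0.093 for *Slc9c1*, -0.018 to 0.068 for *Atp1a4*, -0.032 to 0.023 for *Atp2b4* and -0.012 to 0.058 for *Slc26a8*. *Kcnu1* (0.082 to 0.18), *Lrrc52* (0.13 to 0.24) and *Adcy10* (-0.11 to -0.031) kept their sign throughout. The count of called genes over all genes was 88 without a filter and 73 to 233 with single libraries left out. With the replicate number as a block it was 50, but same-numbered libraries did not deviate together (correlations of 0.065, -0.13 and 0.061), so the numbers do not pair them. The split was 102 higher to 47 lower as deposited and 121 to 33 with upper-quartile scaling, 87 to 28 with median-of-ratios scaling and 82 to 27 on single-row symbols. The summed level of the 8 genes was 299.96 ± 4.22 FPKM in KO-titled libraries against 294 ± 4.88 FPKM in WT-titled libraries (SD, n = 3 each), a difference of 5.63 FPKM, or 2.90 with equal library totals, 11.99 with upper-quartile and 15.2 with median-of-ratios scaling, and 3.63 (without KO-titled replicate 2) to 8.44 (without WT-titled replicate 3) with single libraries left out. The cause of these shifts was not tested. With single libraries left out, the log2 ratio of *Lrrc52* to *Kcnu1* differed by 0.037 to 0.067, that of *Slc9c1* to *Adcy10* by 0.071 to 0.13, the *Atp2b4* share by 0.916 to 1.73 and the *Slc26a8* share by 0.484 to 1.67 percentage points. The sign of the *Adcy10* share (-0.323 to 0.213 points) and of the *Slc9c1* share (-0.751 to 0.867 points) turned.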
